A study of Mus musculus with 6 samples.

Results

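Type IV collagen is the network-forming collagen of basement membranes, the sheets of matrix that underlie epithelia and vessels. In the mature kidney glomerulus, podocytes secrete a network built from the α3, α4 and α5 chains, encoded by Col4a3, Col4a4 and Col4a5. The α6 chain, encoded by Col4a6, joins α5 chains in a different network, found in Bowman's capsule and around collecting ducts and smooth muscle. Alport syndrome is the hereditary kidney disease that follows loss of the α3α4α5 network, and the α1 and α2 chains, encoded by Col4a1 and Col4a2, form the network that basement membranes share more widely. The genes described here are the 4 whose symbols are Col4a3, Col4a4, Col4a5 and Col4a6, out of 32285 genes in the count matrices, and all 4 had counts in all 6 libraries.

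Spatial gene expression was measured on cryosections of frozen mouse kidney with Visium slides (10x Genomics). Each barcoded spot on such a slide captures polyadenylated RNA from several cells above it. The 6 libraries were Early treated 5m AS, Late treated 5m AS, 5m AS, 2m AS, a mixed library of WT Female & Hetero Female, and WT. The 4 AS (Alport syndrome) libraries came from B6.Cg-Col4a5tm1Yseg mice, 3 of them aged 5 months and 1 aged 2 months. The early and late treated mice had received hEV, an abbreviation that the labels do not spell out, and the labels do not say what early and late refer to. The mixed library held B6C57 and B6.Cg-Col4a5tm1Yseg tissue, with nothing to tell which spots belong to which animal. WT was B6C57, of an age that the labels do not give. Transcripts of Ddx3y, a Y-linked gene, stood at 22.0 to 27.2 scaled CPM in the 4 AS libraries and WT and at 0 UMIs in the mixed library, so sex differed between the mixed library and the other 5. Each group was 1 library, so no test between groups was possible, and every interval below covers counting error only.

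The targeted Col4a5 allele is known to carry a nonsense change near the start of the coding sequence. Visium reads come from the 3′ ends of transcripts, far from that change, so Col4a5 counts do not check the genotype. Total counts per library ran from 48940875 UMIs in early treated to 91976637 UMIs in 2m AS, over 1997 spots in 5m AS to 4093 spots in WT. Mitochondrially encoded genes took 6.0% to 11.9% of UMIs, the most in WT. Levels are given as CPM (counts scaled to a fixed library total) after scaling by TMM factors (a trimmed mean that balances libraries of different composition). A gene was called higher or lower where it reached 5 scaled CPM in 1 of the 2 libraries and differed by at least 1.5-fold.

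The 4 genes lie as 2 head-to-head pairs in the mouse genome (mm10, GENCODE M21). Col4a4 (chr1:82448423-82586849, minus strand) and Col4a3 (chr1:82586921-82722059, plus strand) start 71 bases apart. Col4a6 (chrX:141165403-141474076, minus strand) and Col4a5 (chrX:141475385-141689234, plus strand) start 1308 bases apart. The sequences show what lies between or before these starts, because the results set the 2 genes of each pair side by side. They are from RefSeq promoter windows on GRCm38.p6, which hold 3 of the 4 genes, and are written 5′ to 3′ on the strand of the gene named first. Capitals mark a CCAAT box. RefSeq's own Col4a4 record begins further upstream than the GENCODE start.
Col4a4 to Col4a3, all bases between the GENCODE starts (chr1:82586850-82586920, minus strand): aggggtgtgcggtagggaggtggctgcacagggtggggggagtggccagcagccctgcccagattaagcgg
Col4a5, upstream (chrX:141475169-141475369, plus strand): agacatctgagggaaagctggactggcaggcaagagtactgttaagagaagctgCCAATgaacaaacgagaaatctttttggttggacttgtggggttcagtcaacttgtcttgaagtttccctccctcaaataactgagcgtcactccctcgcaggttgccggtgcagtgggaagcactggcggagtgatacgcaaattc
Col4a6, upstream (chrX:141474096-141474326, minus strand): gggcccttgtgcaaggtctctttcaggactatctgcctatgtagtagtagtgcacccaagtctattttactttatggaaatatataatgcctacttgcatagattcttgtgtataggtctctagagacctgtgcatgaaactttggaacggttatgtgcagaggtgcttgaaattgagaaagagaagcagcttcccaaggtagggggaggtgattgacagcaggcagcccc
The GC content of the short Col4a4 to Col4a3 interval was 69.0%, against 49.8% for the Col4a5 stretch and 45.5% for the Col4a6 stretch. Both strands were searched for the GC box (GGGCGG), the CCAAT box (CCAAT) and the TATA box (TATAAA), which do not overlap one another. Over all 32851 promoter windows of 300 bases, 35.7% held the GC box, 37.4% the CCAAT box and 13.6% the TATA box. The only match in the printed stretches, which are shorter than these windows, was the CCAAT box upstream of Col4a5. In their full windows of 300 bases, Col4a5 and Col4a6 each held 1 GC box as well, and Col4a4 held no match.

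Col4a5, the gene that carries the Alport allele, stood lower than in WT in each of the 4 AS libraries when whole sections were summed. Its level was 5.52 scaled CPM in early treated, 5.57 in late treated, 3.39 in 5m AS and 6.54 in 2m AS, against 13.2 in the mixed library and 11.9 in WT. These values rest on 318, 374, 201 and 482 UMIs in the AS libraries, and on 919 UMIs in the mixed library and 811 UMIs in WT. All 4 AS values lay below both libraries with wild-type tissue, and 5m AS was the lowest of the 6. The intervals of early treated, late treated and 2m AS overlapped one another, as did those of the mixed library and WT.

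The ratio of Col4a5 to WT was 0.286 in 5m AS (95% interval 0.244 to 0.334), with 12.0% of genes called lower in that comparison. It was 0.552 in 2m AS (0.492 to 0.618), where 8.28% of genes were called lower. In early treated it was 0.465 (0.407 to 0.530), against 10.4% of genes called lower. In late treated it was 0.470 (0.415 to 0.532), against 11.6% of genes called lower. All 4 calls were kept without scaling factors, where the early treated and late treated log2 ratios stood at -0.65 and -0.64. With each spot weighted equally the late treated log2 ratio was -0.55, which is under 1.5-fold. Against the mixed library the log2 ratios were -1.26 in early treated, -1.24 in late treated, -1.96 in 5m AS and -1.01 in 2m AS.

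**Figure D1:**
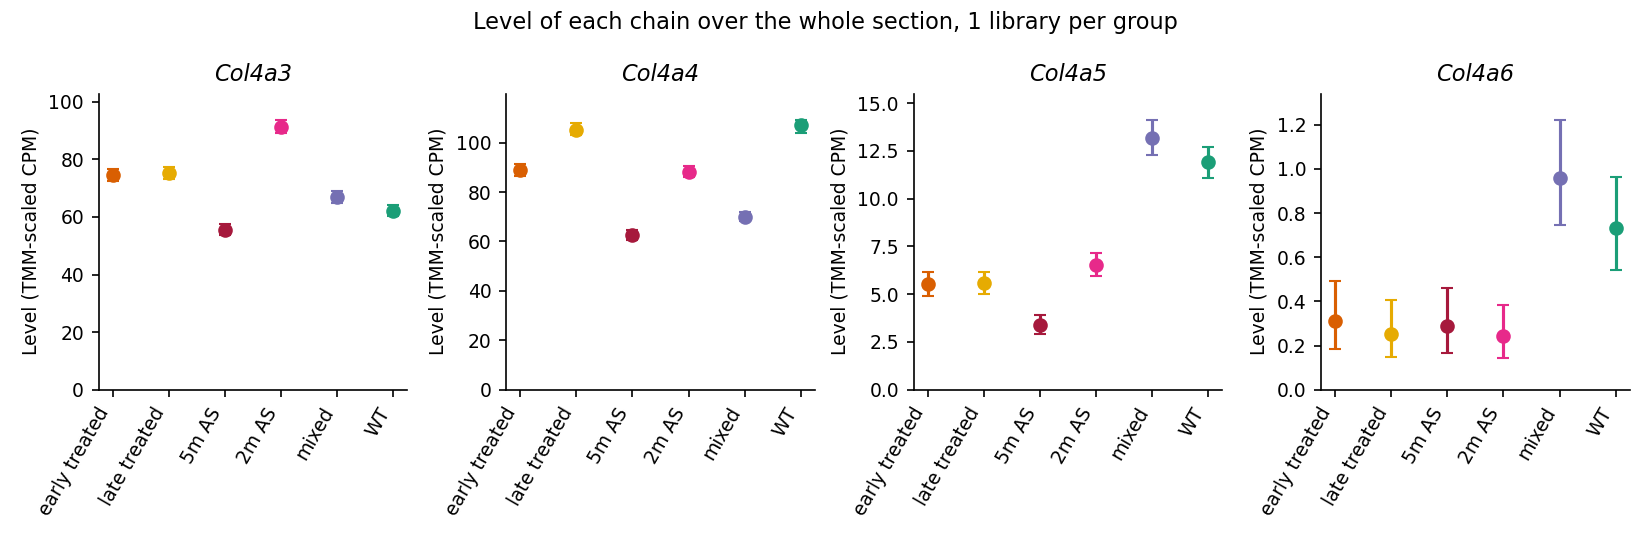
Level of each chain over the whole section in TMM-scaled CPM (linear axes from 0), 1 point per library, with 95% Poisson intervals for counting error. Col4a5 and Col4a6 sit lower in all 4 AS libraries (Col4a5 at 3.39 to 6.54) than in the mixed library and WT (13.2 and 11.9), while Col4a3 and Col4a4 do not split in that way.

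Col4a6, the neighbour of Col4a5, was scarce in every library. It had 18 UMIs in early treated, 17 in late treated, 17 in 5m AS and 18 in 2m AS, against 67 in the mixed library and 50 in WT. On the scaled CPM axis this was 0.312, 0.253, 0.287 and 0.244 in the AS libraries, against 0.961 in the mixed library and 0.731 in WT. None of the AS intervals reached the interval of either library with wild-type tissue. The ratio to WT was 0.427 in early treated (0.235 to 0.745), 0.346 in late treated (0.187 to 0.611), 0.392 in 5m AS (0.212 to 0.692) and 0.334 in 2m AS (0.184 to 0.583). At under 5 scaled CPM the gene entered no call. With each spot weighted equally the log2 ratio in early treated was -0.25, against -1.23 over the section, and outside podocyte-rich spots that of late treated was -2.86, against -1.53.

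Col4a3 and Col4a4, the chromosome 1 pair, did not separate the AS libraries from those with wild-type tissue as Col4a5 did. Col4a3 stood at 74.5 scaled CPM in early treated, 75.3 in late treated, 55.6 in 5m AS and 91.3 in 2m AS, against 66.9 in the mixed library and 62.1 in WT. With these factors 2m AS was the highest and 5m AS the lowest, and the early treated and late treated intervals overlapped. The order depended on the factors. In plain CPM, Col4a3 stood at 87.7 in early treated, 88.1 in late treated, 62.9 in 5m AS and 73.1 in 2m AS, against 62.5 in the mixed library and 53.2 in WT. With the factors no AS library was called different from WT for Col4a3, and 2m AS was nearest at 1.47 times WT (1.42 to 1.53). That ratio passed 1.5-fold with median-of-ratios factors. Early treated and late treated passed it without the factors and with equal weight for every spot (log2 ratios of 0.75 and 0.71 in the second setting). With the factors they lay at -0.27 and -0.14 outside podocyte-rich spots. That direction depended on the factors. In plain CPM, Col4a3 in these spots stood at 58.1 in early treated and 63.3 in late treated, above the 51.0 of WT.

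Col4a4 stood at 88.9 scaled CPM in early treated, 105 in late treated, 62.6 in 5m AS and 88.3 in 2m AS, against 70.1 in the mixed library and 107 in WT. 5m AS was the lowest again, late treated and WT overlapped, and so did early treated and 2m AS. The 5m AS to WT ratio was 0.587 (0.564 to 0.611), called lower, while the 3 other AS libraries were not called. The mixed library was called lower than WT as well, at 0.657 (0.633 to 0.681), where 8.61% of genes were called lower. Without scaling factors neither Col4a4 call was kept. For 5m AS the call also ended with each spot weighted equally (log2 ratio -0.28) and against the mixed library (-0.16).

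Between the ages of the untreated AS mice, 5m AS stood below 2m AS for the chains of the α3α4α5 network with the scaling factors. For Col4a4 this was not kept without them. Col4a3 was called lower in 5m AS at 0.609 times 2m AS (0.584 to 0.635), and Col4a5 at 0.518 times (0.437 to 0.612). In that comparison 19.6% of genes were called lower, so this count of 2 members is read against a large background. Col4a4 was at 0.710 times 2m AS (0.682 to 0.739), not called. Without scaling factors no member was called between these libraries, and Col4a4 stood at 70.8 CPM in 5m AS and 70.7 in 2m AS. The median of all tested genes then stood at 0.45 on the log2 scale, against -0.04 with the factors. With each spot weighted equally the log2 ratios of Col4a3, Col4a4 and Col4a5 were -0.19, 0.0039 and -0.41.

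Both treated libraries stood above 5m AS for these chains. Col4a5 was called higher in early treated at 1.63 times 5m AS (1.36 to 1.95), where 3.98% of genes were called higher. In late treated it was called higher at 1.64 times 5m AS (1.38 to 1.96), where 7.94% of genes were called higher. Col4a4 was called higher in late treated at 1.68 times 5m AS (1.61 to 1.75), and stood at 1.42 times in early treated (1.36 to 1.48), not called. Col4a3 was at 1.34 times 5m AS in early treated (1.28 to 1.40) and 1.35 times in late treated (1.3 to 1.41), neither called. These 3 calls were kept with each of the 3 other scalings. Outside podocyte-rich spots, defined below by podocyte markers, the early treated log2 ratio of Col4a5 was 0.58, just short of 1.5-fold. In late treated it was 0.70 there. Col4a4 outside these spots was at 0.39 in early treated and 0.65 in late treated, and Col4a3 at 0.02 and 0.15. Podocyte markers stood higher in the same libraries: the podocyte list summed to 492 scaled CPM in early treated and 557 in late treated, against 311 in 5m AS. In whole sections, fewer podocytes in a section and less RNA per podocyte cannot be told apart. Early treated and late treated did not differ by a call in any member (3.70% of genes called higher and 2.02% lower), with Col4a5 at a ratio of 0.990 (0.850 to 1.15).

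The proportion of the chains within a library needs no scaling factor. Per 1000 UMIs of Col4a3 and Col4a4 together, Col4a5 had 33.8 UMIs in early treated, 30.9 in late treated, 28.7 in 5m AS and 36.5 in 2m AS, against 96.1 in the mixed library and 70.3 in WT. All 4 AS libraries lay well under both libraries with wild-type tissue. Relative to WT this proportion was 0.481 in early treated (0.421 to 0.548), 0.440 in late treated (0.388 to 0.498), 0.408 in 5m AS (0.348 to 0.477) and 0.519 in 2m AS (0.463 to 0.581). On this measure early treated was 1.18 times 5m AS (0.984 to 1.41) and late treated 1.08 times (0.906 to 1.29), and both intervals held 1. The 5m AS library was at 0.786 times 2m AS (0.664 to 0.929), an interval below 1. The mixed library was above WT at 1.37 times (1.24 to 1.51). Col4a6 followed the same split, with 1.91, 1.40, 2.42 and 1.36 UMIs per 1000 in early treated, late treated, 5m AS and 2m AS, against 7.01 in the mixed library and 4.33 in WT.

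**Figure D2:**
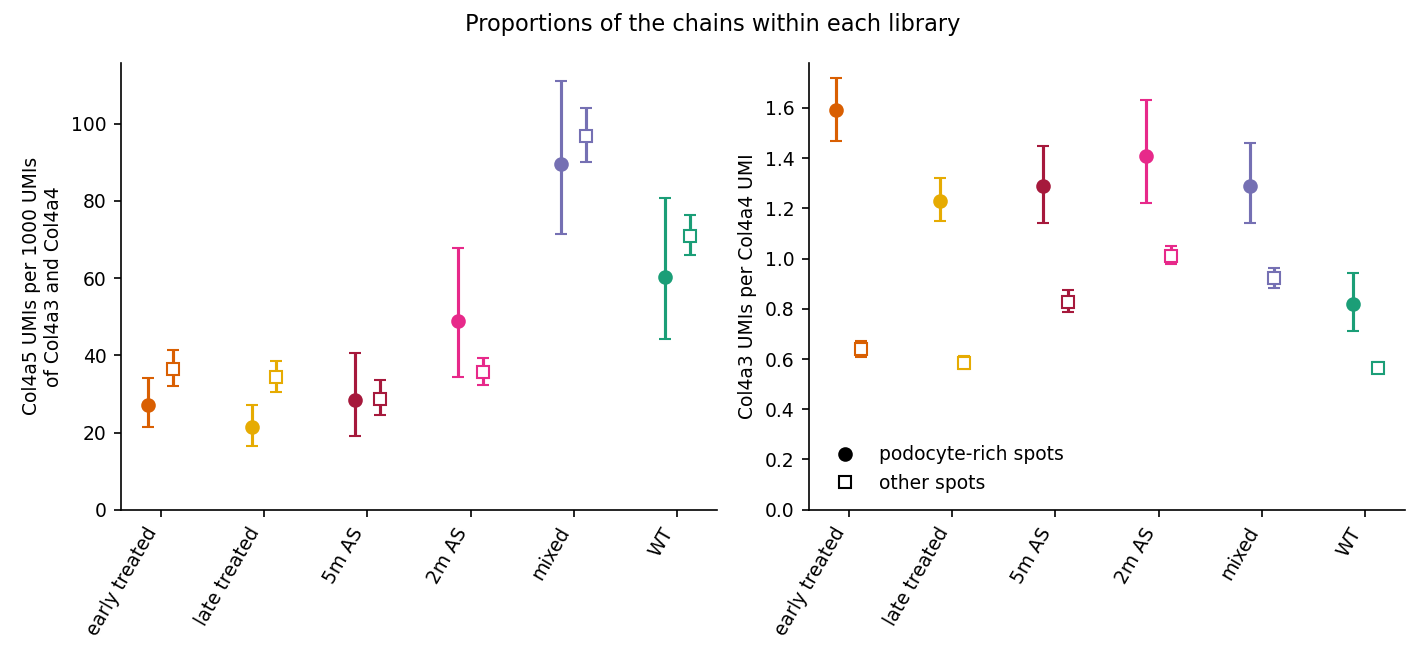
Left, Col4a5 UMIs per 1000 UMIs of Col4a3 and Col4a4; right, Col4a3 UMIs per Col4a4 UMI. Filled circles are podocyte-rich spots and open squares all other spots of a library, with 95% exact intervals for counting error. On the left the 4 AS libraries lie below the mixed library and WT in both kinds of spot, with overlapping intervals for podocyte-rich spots of 2m AS and WT; on the right every filled circle lies above its open square.

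Podocytes, the cells that make the α3α4α5 network, were located with 10 marker genes that include no collagen (among them Synpo, Wt1 and Podxl). A spot of at least 500 UMIs counted as podocyte-rich with at least 5 UMIs of this list and at least 10 per 10000 UMIs. There were 334 such spots in early treated, 289 in late treated, 179 in 5m AS and 121 in 2m AS, against 289 in the mixed library and 225 in WT. Their podocyte content differed, as the summed list made up 41.2 per 10000 UMIs in early treated and 42.2 in late treated, but 19.7 in 5m AS, 21.3 in 2m AS, 22.3 in the mixed library and 17.7 in WT.

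Col4a3 was concentrated in podocyte-rich spots in all 6 libraries. Its level there was 395 CPM in early treated, 332 in late treated, 165 in 5m AS, 227 in 2m AS, 152 in the mixed library and 101 in WT. In the other spots of the same libraries it was 58.1, 63.3, 55.1, 69.7, 57.7 and 51.0 CPM. The spread between libraries was wider in the podocyte-rich spots than in the other spots. The ratio of podocyte-rich to other spots was 6.80 in early treated (6.39 to 7.23), 5.24 in late treated (4.94 to 5.56), 3.0 in 5m AS (2.74 to 3.27) and 3.26 in 2m AS (2.96 to 3.59). It was 2.63 in the mixed library (2.41 to 2.87) and 1.99 in WT (1.78 to 2.21). Col4a3 was called higher in 6 of 6. The share of all genes called higher was 27.7% in early treated, 25.7% in late treated, 14.7% in 5m AS, 34.9% in 2m AS, 25.0% in the mixed library and 18.2% in WT.

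Col4a4 was also higher in podocyte-rich spots, by less. The ratio was 2.74 in early treated, 2.49 in late treated, 1.93 in 5m AS, 2.35 in 2m AS and 1.88 in the mixed library, all called, and 1.37 in WT (1.24 to 1.51), not called. The Col4a4 level in other spots ranged from 62.7 CPM in the mixed library to 108 CPM in late treated. Col4a5 had ratios of 3.23, 2.17, 2.39, 3.86 and 2.07 in early treated, late treated, 5m AS, 2m AS and the mixed library, all called. In WT it was 1.36 (0.991 to 1.82), an interval that holds 1. In CPM, Col4a5 in podocyte-rich spots was 17.5 in early treated, 12.8 in late treated, 8.33 in 5m AS and 19.0 in 2m AS, against 24.2 in the mixed library and 13.6 in WT. Without scaling factors, early treated and 2m AS were at 1.29 (0.885 to 1.89) and 1.40 (0.891 to 2.19) times WT in these spots, with intervals that held 1. Col4a6 had at most 12 UMIs in the podocyte-rich spots of any library. Its ratios to other spots were 10.4 in early treated (3.66 to 29.6), 23.5 in late treated (7.70 to 85.0), 3.70 in the mixed library (1.75 to 7.14) and 6.08 in WT (2.81 to 12.1). In 5m AS and 2m AS the intervals for Col4a6 held 1.

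**Figure D3:**
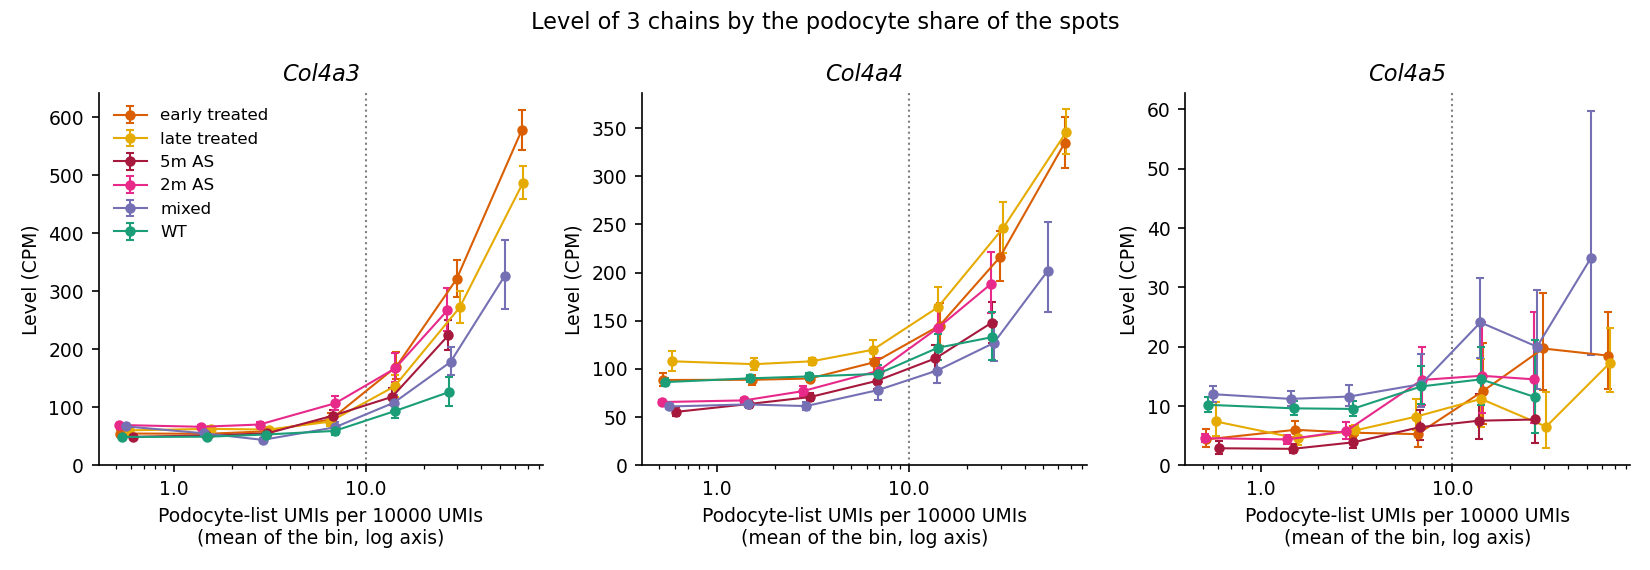
Level of 3 chains (CPM, axes from 0) against the podocyte-list UMIs per 10000 UMIs of the spots (log axis), 1 line per library, with 95% Poisson intervals; bins under 20 spots are not drawn and the dotted line marks 10 per 10000. Col4a3 climbs above 5 per 10000 in every library, to 577 CPM in early treated, while Col4a4 and Col4a5 start from a base that differs between libraries.

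The level of Col4a3 was higher at each step of the podocyte share from 5 per 10000 up to 40 in all 6 libraries. In spots below 1 podocyte UMI per 10000 it was 54.8 CPM in early treated, 60.3 in late treated, 49.1 in 5m AS, 69.5 in 2m AS, 67.0 in the mixed library and 48.9 in WT. At 10 to 20 per 10000 it was 170, 136, 118, 167, 108 and 93.3 CPM in the same libraries. At 20 to 40 per 10000 it was 321, 272, 224, 267, 178 and 126 CPM. In these plain CPM values WT was the lowest at both upper steps. The TMM factors were 1.13 in 5m AS and 0.858 in WT. Scaling by them would lower the 5m AS values and raise the WT values, so the order at 10 to 20 per 10000 depends on them. Above 40 per 10000 Col4a3 reached 577 CPM in early treated (145 spots), 487 in late treated (124 spots) and 326 in the mixed library (42 spots), with under 20 spots there in the other 3 libraries. Around the threshold, Col4a3 in WT was 83.2 CPM in the 42 spots of 10 to 12 per 10000, and 67.8 CPM in the 70 spots of 8 to 10.

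Because podocyte-rich spots differed in podocyte content, the chains were also set against the podocyte list itself. Per 1000 podocyte UMIs in podocyte-rich spots, there were 96.1 Col4a3 UMIs in early treated, 78.5 in late treated, 84.0 in 5m AS, 107 in 2m AS, 68.1 in the mixed library and 57.3 in WT. All 4 AS libraries lay above both libraries with wild-type tissue. The ratio to WT was 1.68 in early treated (1.49 to 1.88), 1.37 in late treated (1.22 to 1.54), 1.46 in 5m AS (1.28 to 1.67) and 1.86 in 2m AS (1.62 to 2.14). After the level of the other spots was taken off both quantities, Col4a3 came to 87.0 UMIs per 1000 podocyte UMIs in early treated, 68.2 in late treated, 63.3 in 5m AS, 78.8 in 2m AS, 45.6 in the mixed library and 32.2 in WT. On that measure the AS intervals (lowest bound 55.7) lay clear of those of the mixed library and WT (highest bound 51.7).

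Set against the podocyte list, Col4a4 was higher in all 4 AS libraries than in WT only after this subtraction. In CPM, Col4a4 in podocyte-rich spots was 249 in early treated, 269 in late treated, 128 in 5m AS and 161 in 2m AS. WT was at 124 CPM, and the 5m AS ratio to WT was 1.04 (0.910 to 1.19), an interval that held 1. Per 1000 podocyte UMIs Col4a4 stood at 60.4 in early treated, 63.8 in late treated, 65.3 in 5m AS and 75.7 in 2m AS, against 52.9 in the mixed library and 70.0 in WT. With the other spots taken off it was 40.8, 41.0, 35.6 and 46.3 in those AS libraries, against 26.8 in the mixed library and 21.5 in WT. The interval of 5m AS (28.9 to 42.4) overlapped those of the mixed library (21.4 to 32.1) and WT (13.9 to 29.0). Col4a5 per 1000 podocyte UMIs was 4.25 in early treated, 3.03 in late treated and 4.23 in 5m AS, against 8.94 in 2m AS, 10.8 in the mixed library and 7.69 in WT. The 2m AS library was at 1.16 times WT (0.739 to 1.82) on 38 Col4a5 UMIs. The 3 libraries aged 5 months were at 0.553 (0.380 to 0.811), 0.394 (0.268 to 0.582) and 0.551 (0.339 to 0.883) times WT in early treated, late treated and 5m AS. With the other spots taken off this order was not kept. Col4a5 then stood at 3.11 in early treated, 1.75 in late treated, 2.78 in 5m AS and 7.04 in 2m AS, against 6.05 in the mixed library and 2.28 in WT, where the interval (-0.222 to 4.78) held 0.

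The balance between Col4a3 and Col4a4 differed between podocyte-rich spots and the other spots. The other spots were not free of podocyte UMIs, as podocyte-rich spots held 27.0% (2m AS) to 62.2% (early treated) of them. A UMI ratio of 2 genes is no ratio of their protein chains, so only its change is read here. There were 1.59 Col4a3 UMIs per Col4a4 UMI in podocyte-rich spots and 0.640 in other spots of early treated, and 1.23 and 0.586 in late treated. In 5m AS these were 1.29 and 0.829, and in 2m AS 1.41 and 1.01. In the mixed library they were 1.29 and 0.921, and in WT 0.819 and 0.566. The ratio was higher in podocyte-rich spots in 6 of 6 libraries, with intervals that did not overlap in any of them. The head-to-head pair was therefore not in a fixed proportion across the kidney.

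Most counts of Col4a3, Col4a4 and Col4a5 lay outside podocyte-rich spots, while Col4a6 had 9 of 18 UMIs in them in early treated and 12 of 17 in late treated. Podocyte-rich spots held 39.5% of Col4a3 UMIs in early treated, 34.9% in late treated, 18.6% in 5m AS, 6.75% in 2m AS, 12.3% in the mixed library and 8.44% in WT. For Col4a4 they held 20.8%, 20.3%, 12.9%, 4.95%, 9.08% and 5.99% in the same libraries. The podocyte list itself had 62.2%, 60%, 39.8%, 27.0%, 41.7% and 28.5% of its UMIs there. After thinning every spot to 5000 UMIs, Col4a3 was still detected in 17.6% (mixed library) to 29.4% (2m AS) of spots without any podocyte UMI. Col4a4 was detected in 23.5% (mixed library) to 41.0% (late treated) of such spots. How much of this is RNA that spread across the slide was not tested.

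Detection of the chains in the same spots was counted after the same thinning, which left out 65 to 626 spots per library. Col4a3 and Col4a4 were found together in 394 spots of early treated, 1.15 times the number from the product of their shares, and in late treated in 416 spots, also 1.15 times. In 5m AS, 2m AS and the mixed library the figure was 1.07, 1.05 and 1.05, and in WT 0.986. Outside podocyte-rich spots it was 0.997 in early treated, 1.05 in late treated, 1.02 in 5m AS, 1.0 in 2m AS, 0.958 in the mixed library and 0.979 in WT. Early treated and late treated thus had the most joint detection, and it was nearer the product without podocyte-rich spots. Thinned to 10000 UMIs, the figure over all spots was 1.04 in early treated and 1.06 in late treated.

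Col4a5 was detected beside Col4a4 in 50 spots of early treated, 1.39 times the product of shares, and in 60 spots of the mixed library, 1.21 times. The figure was 1.21 in late treated, 1.03 in 5m AS, 1.2 in 2m AS and 0.968 in WT. Of thinned spots with Col4a4 in early treated, 4.33% also had Col4a5 (3.23% to 5.67%), against 2.32% of those without Col4a4 (1.67% to 3.13%). In the 5 other libraries these intervals overlapped. Thinned to 10000 UMIs they overlapped in early treated too, at 7.28% (5.97% to 8.78%) and 4.95% (3.59% to 6.63%). Col4a6 and Col4a5 were found together in at most 2 thinned spots of any library, too few to set against a product of shares. For comparison, Col4a1 and Col4a2 were at 1.03 to 1.08 times the product in all 6 libraries.

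Outside the glomerulus Col4a4 was enriched in distal tubule spots by more than Col4a3. Spots were ranked by 12 further marker lists, and the top 5% of each were set against all other spots of the library. Spots rich in distal convoluted tubule markers (such as Slc12a3, the thiazide-sensitive salt transporter) had more Col4a4 in 6 of 6 libraries. Col4a4 there was 1.56 times the other spots in early treated, 1.25 in late treated, 1.49 in 5m AS, 1.54 in 2m AS, 1.51 in the mixed library and 1.19 in WT, each with an interval above 1. Col4a5 was 1.57, 1.80, 1.52, 1.82, 1.27 and 1.44 times the other spots in the same libraries, with intervals above 1 in 4 of the 6 (not in 5m AS or the mixed library). Col4a3 in these spots was at 0.816 to 1.21 times, with a median of 0.859. Of the 100 to 205 spots per library, 5 to 13 were podocyte-rich. With podocyte-rich spots left out of both sides the range was 1.2 to 1.82 for Col4a4 and 0.859 to 1.26 for Col4a3, with Col4a4 above Col4a3 in each library. Col4a3 then had intervals above 1 in early treated (1.09 to 1.46) and 5m AS (1.01 to 1.42).

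Spots rich in intercalated cell markers, the acid-secreting cells of the collecting duct, also had more Col4a4. Col4a4 was 1.17 (WT) to 1.52 (mixed library) times the other spots, with intervals above 1 in 6 of 6 libraries. Col4a3 was 0.744 (mixed library) to 1.06 (5m AS) times. Without podocyte-rich spots the ranges were 1.19 to 1.57 for Col4a4 and 0.725 to 1.26 for Col4a3. In spots rich in principal cell markers, the water-reabsorbing cells of the same duct, Col4a4 was 1.04 to 1.32 times, with intervals above 1 in 4 of 6. Col4a6, known from collecting duct basement membrane, had 0 to 3.25 times the level of other spots in principal cell-rich spots, and no library had an interval clear of 1. Without podocyte-rich spots late treated was at 15.1 times (1.26 to 131), on 2 UMIs.

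**Figure D4:**
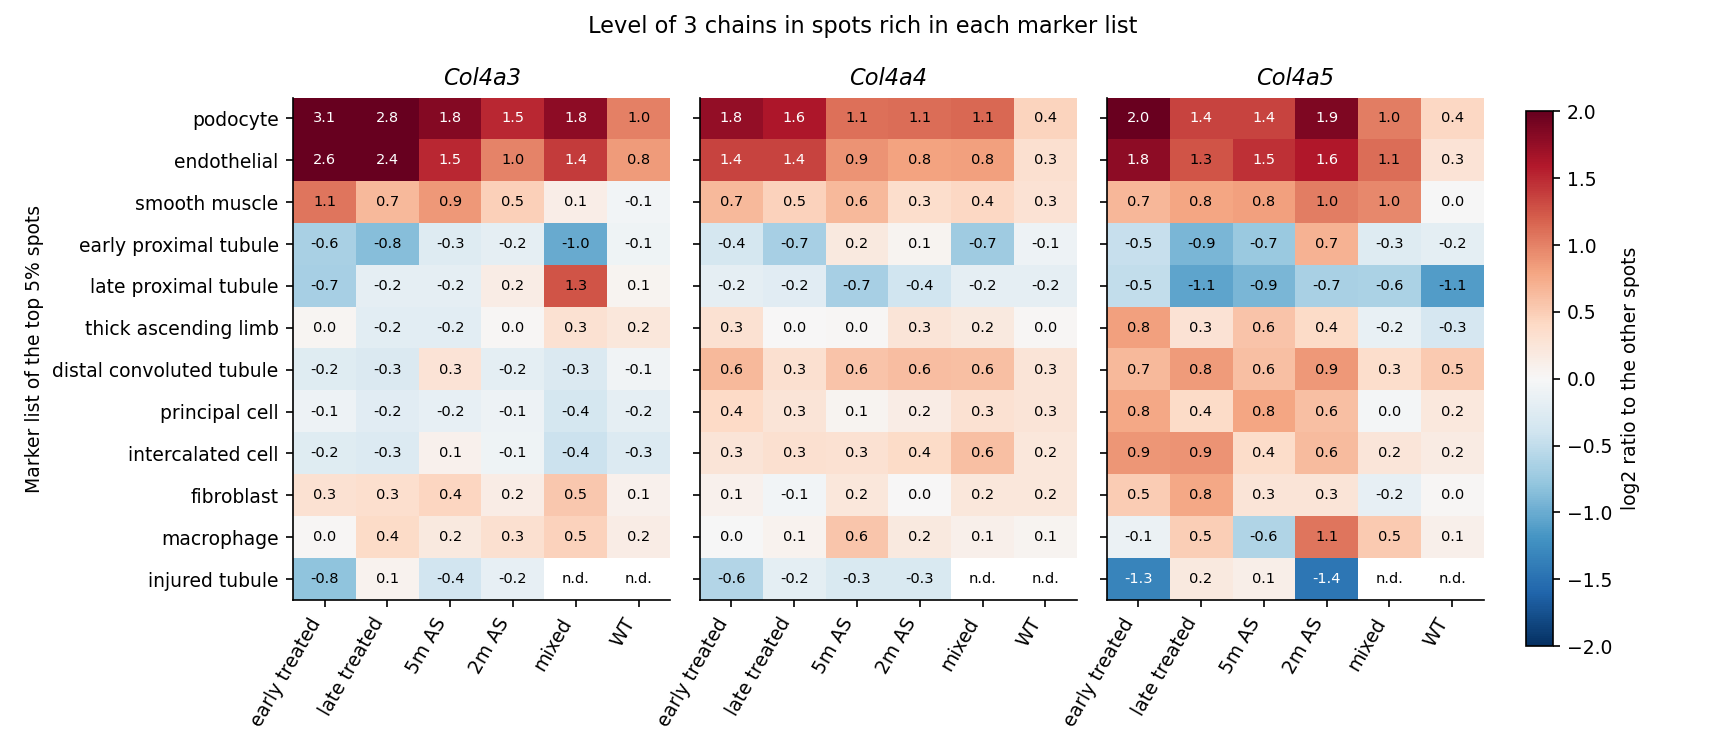
Log2 ratio of the level of 3 chains in the top 5% of spots for each marker list (rows) to all other spots of the same library (columns); red is higher and blue lower, and n.d. marks classes under 20 spots. The distal convoluted tubule and intercalated cell rows are positive in all 6 libraries for Col4a4 and not for Col4a3, and the late proximal tubule row is negative for Col4a5 in all 6.

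Spots rich in endothelial markers had 1.80 (WT) to 6.11 (early treated) times the Col4a3 of other spots, and 52 to 133 of those 100 to 205 spots were also podocyte-rich. With podocyte-rich spots left out of both sides, the Col4a3 ratio was 0.647 to 1.25, and no library had an interval above 1. Smooth muscle-rich spots had more Col4a4 in 6 of 6 libraries, at 1.22 to 1.57 times, and 1.06 to 1.26 times without podocyte-rich spots. Injured tubule-rich spots (Havcr1, Lcn2 and others) could be drawn in 4 libraries. Col4a4 was lower there in 4 of 4, at 0.666 in early treated, 0.877 in late treated, 0.814 in 5m AS and 0.809 in 2m AS. The α1 and α2 chains went the other way in those spots, as Col4a1 was at 1.65 to 2.30 times and Col4a2 at 1.57 to 2.12 times the other spots.

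The late segment of the proximal tubule separated the 3 chains further. Col4a5 was lower in the spots rich in its markers in 6 of 6 libraries, at 0.463 (WT) to 0.711 (early treated) times the other spots, with intervals below 1 in 4 of the 6. Col4a3 differed by the most in the mixed library. It stood there at 130 CPM in late proximal tubule-rich spots, 2.38 times the 54.8 CPM of other spots (2.22 to 2.55), and none of those 162 spots was podocyte-rich. In the other libraries the ratio was 0.633 in early treated, 0.881 in late treated, 0.887 in 5m AS, 1.11 in 2m AS and 1.04 in WT. Without podocyte-rich spots on either side it was 2.66 in the mixed library and 0.955 to 1.27 in the other 5. Col4a4 in the same spots of the mixed library was at 0.88 times (0.797 to 0.971). There were 2.23 Col4a3 UMIs per Col4a4 UMI in them (2.00 to 2.50), above the 1.29 of podocyte-rich spots in that library. In 2m AS the figure was 1.48 (1.28 to 1.70), beside 1.41 in podocyte-rich spots (1.22 to 1.63). In early treated, late treated, 5m AS and WT it was lower than in their podocyte-rich spots.

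Col4a3 in the mixed library was higher at each step of the late proximal tubule share. It was 48.1 CPM in 2391 spots below 1 UMI of the list per 10000, 56.5 CPM at 1 to 2, 69.2 CPM at 2 to 5, 111 CPM at 5 to 10 and 135 CPM at 10 to 20. Over the same steps in WT it was 47.0, 51.3, 49.6, 55.7 and 55.1 CPM. The mixed library and WT were alike at the lowest step of the list and differed at the upper steps. The lowest step held 2391 spots in the mixed library but 149 in WT. The same share of the list therefore need not mean the same amount of the segment in both libraries. Spots at 5 to 10 per 10000 held 20.9% of the Col4a3 UMIs of the mixed library, and spots at 10 to 20 held 10.0%.

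The list was carried by different genes in that library. In its late proximal tubule-rich spots there were 5185 UMIs of Slc22a7 and 2485 of Slc22a13, both organic anion transporters, but 8 of Slc7a13 and 14 of Cyp7b1. In WT the same class had 4738 UMIs of Slc7a13, 1658 of Slc22a7, 650 of Cyp7b1 and 523 of Slc22a13. Slc7a13 and Cyp7b1 are known to be higher in male than in female mouse kidney. Sex, the animals and the library differ together between the mixed library and the other 5, so they cannot be told apart. C430014B12Rik, an antisense transcript that overlaps 30132 bases at the 3′ side of Col4a3, had 3 UMIs in the 162 spots, and 37 to 78 UMIs in any whole library. Without a stated strand setting, reads from Col4a3 and this gene cannot be told apart in full.

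**Figure D5:**
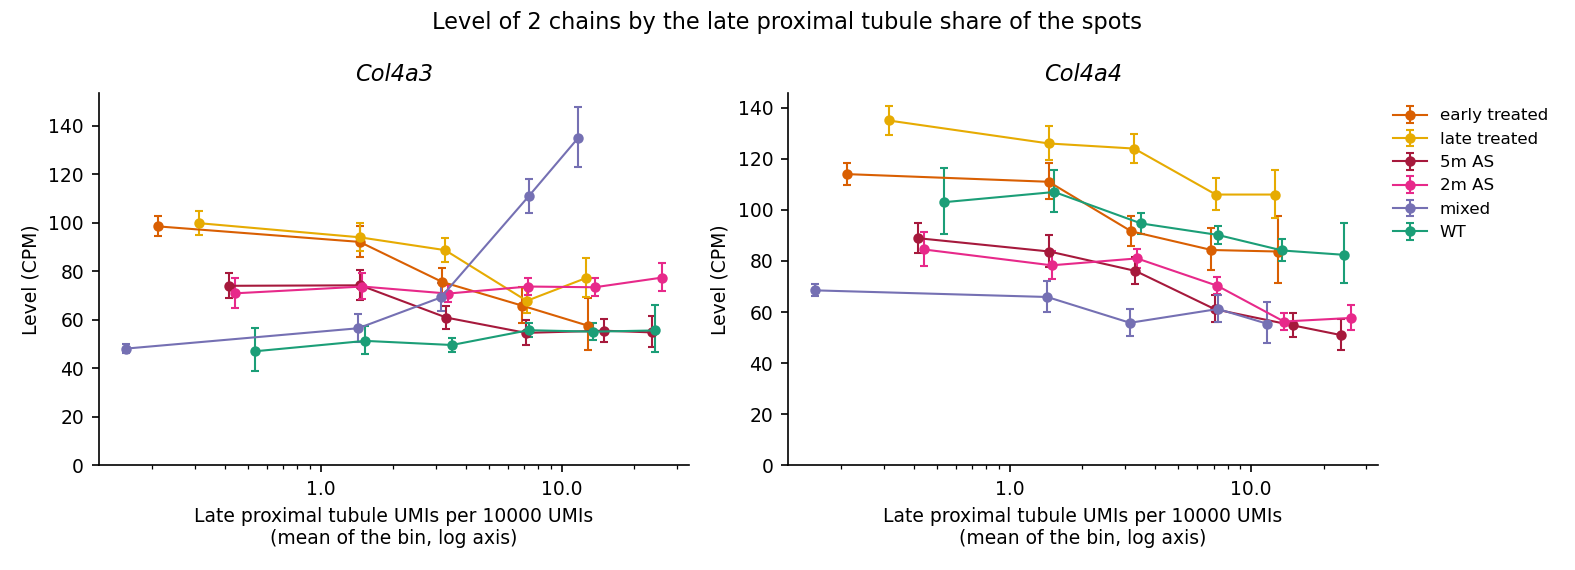
Level of Col4a3 (left) and Col4a4 (right) in CPM (axes from 0) against the late proximal tubule UMIs per 10000 UMIs of the spots (log axis), 1 line per library, with 95% Poisson intervals; bins under 20 spots are not drawn. Col4a3 climbs from 48.1 to 135 CPM in the mixed library and stays between 47.0 and 55.7 CPM in WT, while Col4a4 stays between 55.4 and 68.5 CPM in the mixed library.

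The genes whose pattern across spots was most like each chain were listed by Pearson's r over 70 library by marker class units with library means removed, among 11163 genes. The units share libraries and spots, so r is a description. Col4a3 was most like Dpp4 (0.919), Mertk (0.916), Crim1 (0.912), Pcsk6 (0.898) and Cxcl13 (0.897). Dpp4 encodes a membrane peptidase of podocytes and proximal tubule brush border, and Crim1 a membrane protein of podocytes. Col4a4 was most like Dock8 (0.927), Arhgef18 (0.919), Cd59a (0.907), Lrtm2 (0.880) and Vegfa (0.878), the last a growth factor made by podocytes and tubules. Col4a5 was most like Arhgef18 (0.859), Cd59a (0.853), Dach1 (0.826), Dock8 (0.821) and Kctd12b (0.816). Arhgef18, Cd59a and Dock8 stood in both the Col4a4 and the Col4a5 list, and no gene of the Col4a3 list did.

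Among the chains themselves, r was 0.813 between Col4a4 and Col4a5, 0.806 between Col4a3 and Col4a4 and 0.650 between Col4a3 and Col4a5. For Col4a6, with 187 UMIs in all libraries together, the nearest were Fzd2 (0.826), Robo2 (0.820), Rasl11a (0.815), Agpat4 (0.813) and Dlc1 (0.813). Among the chains, r of Col4a6 was 0.676 with Col4a2, 0.665 with Col4a3, 0.627 with Col4a1, 0.604 with Col4a4 and 0.572 with Col4a5. For the other 3 members, r of Col4a1 was 0.604 with Col4a3, 0.457 with Col4a4 and 0.447 with Col4a5.

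Col4a1 and Col4a2 stood higher in 5m AS than in WT, where the chains of the α3α4α5 network did not. Col4a1 stood at 253 scaled CPM in early treated, 218 in late treated, 325 in 5m AS and 164 in 2m AS, against 128 in the mixed library and 139 in WT. The 5m AS library was the highest and all 4 AS libraries lay above both others. Col4a1 was called higher than WT in 5m AS at 2.34 times (2.29 to 2.40), where 11.9% of genes were called higher, in early treated at 1.83 times (9.07% called higher) and in late treated at 1.57 times (7.19% called higher). In 2m AS it was 1.18 times WT (1.15 to 1.21), not called (7.78% called higher). Col4a2 was at 2.17 times WT in 5m AS, 1.58 in early treated, 1.46 in late treated and 1.21 in 2m AS, the last 2 not called.

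Other genes of basement membrane assembly were taken from 6 lists that hold 50 genes together, with Col4a1 and Col4a2 among them. In 5m AS over WT, 18 of 45 measured genes were called higher and 3 lower (11.9% and 12.0% of all genes), with a median log2 ratio of 0.48 against -0.12 over all tested genes. Without scaling factors the split was 33 higher and 0 lower of 46, where 2698 of all genes were called higher and 413 lower. Serpinh1, the collagen chaperone of the endoplasmic reticulum, was at 255 scaled CPM in 5m AS and 124 in WT, 2.06 times (2.01 to 2.12). Col15a1, a basement membrane collagen, was 5.00 times WT (4.73 to 5.30), and Ddr2, a receptor for fibrillar collagen, 3.99 times (3.55 to 4.49). Mmp2, a gelatinase, was at 47.0 scaled CPM in 5m AS against 5.60 in WT. Lama3, a laminin chain, was lower at 0.543 times WT (0.480 to 0.613), as was Tinag, the tubulointerstitial nephritis antigen of tubular basement membrane, at 0.667 times (0.643 to 0.691).

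In 2m AS over WT, 2 of 42 measured genes were called higher and 6 lower (7.78% and 8.28% of all genes). Without scaling factors these were 2 and 9, where 526 of all genes were called higher and 1249 lower. With the factors Hspg2, which encodes perlecan, was at 0.411 times WT in 2m AS (0.387 to 0.437). Lamb2, the laminin β2 chain of the mature glomerular basement membrane, was at 0.545 times (0.517 to 0.574). In 5m AS over 2m AS, 27 of 45 were called higher and 2 lower (16.9% and 19.6% of all genes). Serpinh1 was 3.65 times and Col18a1, another basement membrane collagen, 3.09 times 2m AS. Without scaling factors the split was 39 higher and 0 lower, where 89.2% of the calls over all genes were higher.

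In early treated, 12 of 43 measured genes were called higher than WT and 1 lower (9.07% and 10.4% of all genes). In late treated 7 of 42 were called higher and 1 lower (7.19% and 11.6% of all genes). Without scaling factors these were 28 higher and 0 lower in early treated, and 25 higher and 0 lower in late treated, where 93.4% and 92.4% of the calls over all genes were higher. Set against 5m AS, early treated had 1 of 45 called higher and 5 lower (3.98% and 4.86% of all genes). Late treated had 2 called higher than 5m AS and 14 lower (7.94% and 11.1% of all genes). Serpinh1 was at 0.649 times 5m AS in early treated (0.632 to 0.665) and 0.355 times in late treated (0.344 to 0.365). Col15a1 was at 0.494 and 0.468 times 5m AS in early treated and late treated. Lama3 was called in the other direction, at 2.22 times 5m AS in early treated and 2.18 times in late treated. Between the treated libraries, early treated over late treated had 4 of 43 called higher and 0 lower (3.70% and 2.02% of all genes). Serpinh1 was at 1.83 times (1.77 to 1.89). In the mixed library 3 of 42 were called higher than WT and 3 lower (7.87% and 8.61% of all genes).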

How the data were processed

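The deposited matrices hold raw counts (UMIs, unique molecular identifiers) per gene and spot; the authors made them with Space Ranger 1.2.1 for 5m AS and WT and 1.3.1 for the other 4 libraries, on mm10, per the submitters' processing notes. Space Ranger version and group differ together in part: treated and 2m AS against WT cross the versions, 5m AS against WT does not. The feature and barcode lists (other values) were deposited beside them. No annotation version or strand setting is given in the sources used here. Counts were summed over spots, scaled with TMM factors from edgeR 4.0.16 (R 4.3.3) and analysed in Python 3.11.15 with numpy 2.4.6, scipy 1.17.1 and pandas 2.3.3. Ratios have exact Clopper-Pearson intervals and levels exact Poisson intervals (95%). Values with the level of other spots taken off have intervals from a normal approximation to the counts. The level 3 counts would give in a library is 0.0407 to 0.0521 scaled CPM. Libraries shared 1361 to 3083 of 4922 spot barcodes, which are fixed positions of the slide design. Spots are not replicates, and the spots of a class can hold several cell types. Levels of podocyte-rich and other marker classes are plain CPM within the class. Classes under 20 spots were left out. The genes named beside the members were up to 2 per list, comparison and direction with the largest ratios, and the 5 most alike by r with at least 5 CPM (pseudocount 1). Ratios and calls were tested on simulated data. The members, lists and rules were chosen with earlier results of these data known. Positions are from GENCODE M21 and sequences from RefSeq.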

Additional observations from a re-analysis of the deposited data

How the results depend on the processing

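No paired analysis was possible because each group is 1 library and the results come from no test. The ratio of Col4a5 to WT over whole sections stayed below 1 under every alternative run for it. Its log2 value was -1.10 in early treated (-0.65 without scaling factors, -0.60 with each spot weighted equally and -1.34 outside podocyte-rich spots), -1.09 in late treated (-0.64 and -0.55 under the first pair of settings) and -1.81 in 5m AS (-1.41 and -1.19). In 2m AS it was -0.86, and no alternative left its interval. Without scaling factors the median of all tested genes stood at 0.35 in early treated, 0.33 in late treated, 0.28 in 5m AS and -0.15 in 2m AS over WT; relative to it Col4a5 was at -0.99, -0.97, -1.68 and -0.81. The share of calls that were higher moved from 46.7% to 93.4% in early treated over WT, from 38.3% to 92.4% in late treated over WT, from 49.8% to 86.7% in 5m AS over WT, from 48.4% to 29.6% in 2m AS over WT, from 46.4% to 89.2% in 5m AS over 2m AS and from 47.8% to 66.6% in the mixed library over WT. Col4a3 passed 1.5-fold over WT in early treated and late treated in that setting and with each spot weighted equally (0.75 and 0.71). Outside podocyte-rich spots it lay below WT with the factors (-0.27 and -0.14). In plain CPM it lay above WT there, at 58.1 in early treated and 63.3 in late treated against 51.0. In 5m AS over WT Col4a3 was at -0.16, and at 0.28 with each spot weighted equally. With the mixed library as the reference Col4a4 was at 0.34 in early treated, 0.58 in late treated, -0.16 in 5m AS and 0.33 in 2m AS, against -0.26, -0.02, -0.77 and -0.27 over WT. Counts of genes at least 1.5-fold apart followed the filter: 1316 higher and 1329 lower in 5m AS over WT became 2299 and 1806 at 1 scaled CPM, 546 and 994 at 20, and 5377 and 3956 with none; at 20 scaled CPM Col4a5 is not measured in any library. Marker class ratios that turned direction were, with podocyte-rich spots left out (chosen after seeing the data), Col4a3 in endothelial-rich spots of early treated (-0.63), late treated (-0.21) and 2m AS (-0.06) and in smooth muscle-rich spots of early treated (-0.14) and late treated (-0.05), Col4a4 in endothelial-rich spots of early treated (-0.69) and the mixed library (-0.14), and Col4a5 in smooth muscle-rich spots of early treated (-0.02). With the top 2% of spots they were Col4a5 in principal cell-rich spots of early treated (-0.0028), Col4a3 in smooth muscle-rich spots of late treated (-0.17) and Col4a5 in those of 5m AS (-0.39), and with the top 10% Col4a5 in macrophage-rich spots of 5m AS (0.32). The cause was not tested. The values that need no scaling factor, those with the other spots taken off and those by steps of the late proximal tubule share were also chosen after seeing the data.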
